A study of Mus musculus with 16 samples.

Results

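The genes described here encode the proteins of the cytosolic ribosome, the particle that translates messenger RNA in the cytoplasm, and they were followed in mouse mast cells. Members were all non-control array probes whose gene name in the scanner files begins with Rpl or Rps and a digit, or is Rplp0, Rplp1, Rplp2 or Rpsa. The Rps6k kinase genes were left out. The rule found 137 probes of 82 genes among 41174 probes in all. Of these, 129 probes belong to 77 genes of the ribosome itself (73 probes of 46 large-subunit genes and 56 probes of 31 small-subunit genes), 6 probes to the paralogs Rpl3l, Rpl7l1, Rpl22l1 and Rps27l, and 2 probes to Rps19bp1. Rps19bp1 encodes a protein that binds Rps19 and the deacetylase SIRT1 and is no part of the ribosome. The expression filter kept 134 of the 137 probes, with at least 1 probe for each of the 82 genes, and all 134 were measured in every comparison. The 3 that did not pass are probes of clone sequences named Rps2, Rps6 and Rps19.

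The cells were bone-marrow-derived mast cells, grown from mouse marrow for over 4 weeks with 5 ng/ml of interleukin 3, 40 ng/ml of stem cell factor and 10% serum. The series' design text puts their purity above 90%. They received a polyclonal goat antibody described as an agonist of TIM-3, an immune-cell surface receptor encoded by Havcr2, or control goat IgG, both at 15 ug/ml. Resting and activated cells were each taken after 2 h and after 16 h, which gives 4 groups with 4 two-colour arrays apiece. Activated cells were loaded with anti-DNP IgE (5 ug/ml) for 1 h and then given the antigen DNP-HSA (100 ng/ml). Cy5 marked the anti-TIM-3 sample and Cy3 the IgG sample on every array, and no array exchanged the dyes. Within a group the effect of the antibody and the dye bias of a probe therefore cannot be told apart, whereas the part of a dye bias that every array shares drops out when 1 group's ratio is subtracted from another's. The Cy3 channel holds the IgG-treated cells and was compared across arrays. Its levels were taken after a normalization that uses both channels of an array, so they are not fully independent of the Cy5 sample. The labels do not give the mouse strain, sex or age, and do not say whether the replicates were separate cultures or animals. The p-values thus reflect spread among these arrays alone, and that spread may be technical.

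Each ribosome is built from a small subunit, which reads the message, and a large subunit, which joins amino acids. Growing cells make the proteins of both in near-equal amounts from a large set of abundant mRNAs. In mammals most of these mRNAs begin with a C and a short tract of pyrimidines, the 5′ terminal oligopyrimidine or TOP motif, through which mTOR signalling adjusts their translation together. Such control of translation concerns the use of an mRNA, and the arrays measured amounts. Mast cells store ready-made mediators in granules and, after IgE receptor stimulation, synthesise cytokines anew.

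The shared start was looked for in RefSeq start sites of build GRCm38.p6, because it is the best-known feature that these genes share and the rule did not use. Start sites were at hand for 61 of the 82 genes. A C at the first transcribed base followed by at least 4 letters that are each C or T, read on the sense strand, stood at a start of 13 of these 61 genes (21.3%), against 813 of all 27025 genes of the start-site table (3.01%). All 13 are among the 56 matched genes of the ribosome itself (23.2%). The run stood at 0 of the 5 paralog and binding-protein genes, at 0 of 69 mitochondrial ribosomal protein genes and at 4 of 15 other TOP and elongation genes (26.7%). A looser search, for an unbroken run of at least 7 letters each C or T that includes the start or ends or begins within 10 bases of it, matched 32 of the 61 genes (52.5%) against 23.1% of all genes. It matched 2 of the 5 paralog and binding-protein genes (40.0%), 12 of the 69 mitochondrial genes (17.4%) and 8 of the 15 other TOP and elongation genes (53.3%). RefSeq starts often lie some bases off the cap site, so a missing match says only that these letters are not at that annotated base. The 30 bases around the start are shown for members that recur in the results, in lower case with the run that begins at the first transcribed base in capitals (10 bases before the start and 20 from it). The first 6 have the run. The next 3, Rpl5, Rplp0 and Rps16, are genes of the ribosome without it, as are most, and the last 4 are paralogs and Rps19bp1.
Rps6: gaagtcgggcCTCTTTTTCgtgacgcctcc
Rps18: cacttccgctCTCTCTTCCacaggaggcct
Rps27: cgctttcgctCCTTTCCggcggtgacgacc
Rplp2: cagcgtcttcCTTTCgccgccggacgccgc
Rpl28: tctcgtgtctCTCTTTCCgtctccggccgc
Rpl35: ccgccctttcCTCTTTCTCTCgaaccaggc
Rpl5: cgtcgcttgcgtgctggtggtgctacatac
Rplp0: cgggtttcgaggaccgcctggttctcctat
Rps16: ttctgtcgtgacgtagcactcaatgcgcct
Rps19bp1: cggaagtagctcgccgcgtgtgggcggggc
Rpl7l1: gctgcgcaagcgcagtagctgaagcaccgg
Rpl22l1: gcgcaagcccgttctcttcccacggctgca
Rps27l: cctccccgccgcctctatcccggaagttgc

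These windows lie on the minus strand at chr4:86857348-86857377 (Rps6), chr17:33955646-33955675 (Rps18), chr3:90213629-90213658 (Rps27), chr2:39005112-39005141 (Rpl35), chr15:80264287-80264316 (Rps19bp1) and chr17:46782637-46782666 (Rpl7l1). On the plus strand they lie at chr7:141447641-141447670 (Rplp2), chr7:4792955-4792984 (Rpl28), chr5:107900518-107900547 (Rpl5), chr5:115559457-115559486 (Rplp0), chr7:28350679-28350708 (Rps16), chr3:28805498-28805527 (Rpl22l1) and chr9:66946076-66946105 (Rps27l, the first of its 2 annotated starts). Genes with and without the run are shown because their levels or ratios return below, and the run was not set against any measured value.

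In Cy3, 53.7% to 62.1% of an array's spots were well above background and in Cy5 54.8% to 67.7%, with 0 saturated spots. All 10 mast cell marker genes on the array were kept, with a median Cy3 level of 14.75 to 15.15 in the 4 groups on the log2 scale. Macrophage and dendritic cell markers lay at a median of 8.69 to 9.02 (7 of 8 genes kept, C1qa being not well above background), basophil markers at 10.60 to 11.27 (3 of 3), and neutrophil (1 of 5), erythroid (4 of 6) and lymphocyte (5 of 6) markers at 6.10 to 6.62. Markers also moved in contrasts used below. Of 12 macrophage and dendritic cell probes, 8 were lower in Cy5 than in Cy3 in activated cells at 16 h. That was 66.7%, against 27.7% of all probes (median ratio -0.23). In the ratio differences 4 of the 12 were lower with antigen at 16 h (33.3%, against 6.86%, median -0.26). Over time in activated cells 4 were lower (33.3%, against 15.6%, median -0.12). Lymphocyte and erythroid probes called in these ratio differences were higher, with 0 lower. With antigen at 16 h they were 2 of 5 lymphocyte and 1 of 7 erythroid probes. Over time in activated cells they were 1 of 5 and 2 of 7. The 1 neutrophil marker probe tested differed by -0.36 and -0.43 in those ratio differences and changed by -1.08 in Cy3 and -1.52 in Cy5 over time in activated cells. Mast cell markers had median ratios of 0.08 to 0.22, with up to 60.0% of 15 probes called. In the ratio difference with antigen, 33.3% of them were called at 2 h (2 higher, 3 lower, against 5.64% of all probes). At 16 h it was 26.7% (1 higher, 3 lower, against 6.86%). The part of these shifts in the results below was not tested. In bulk RNA, fewer cells of a type and less RNA per cell cannot be told apart. On 3 resting arrays (replicate 4 at 2 h, replicates 2 and 4 at 16 h) the log2 ratios of all kept probes were narrow, with an SD of 0.116 to 0.125 against 0.173 to 0.257 on the other 13. Calls that changed without those arrays are given beside the results.

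In 7 of the 8 comparisons of levels across arrays a smaller share of ribosomal protein probes than of all probes was called, the exception being Cy5 with antigen at 16 h. In the 4 comparisons of Cy5 with Cy3 within an array the members' share was the larger one. The differences between shares were not tested. Called means an adjusted p under 0.05 in limma, with Benjamini-Hochberg adjustment over all probes tested (25394). The plot of called shares sets the members beside all probes in the 16 comparisons.

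**Figure D1:**
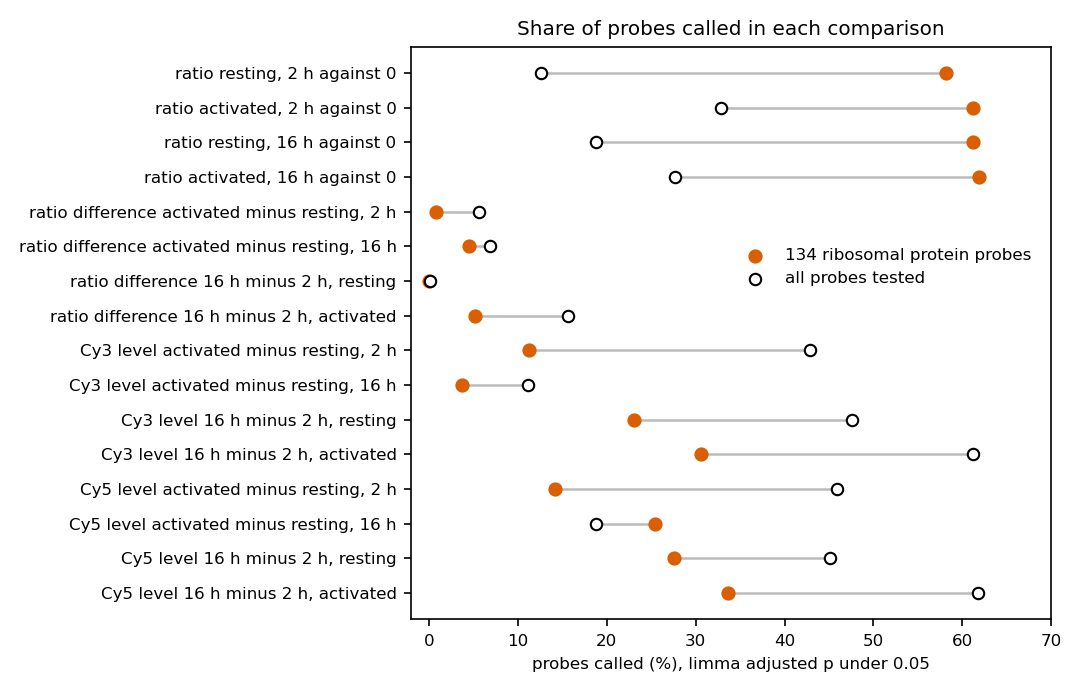
Share of probes called (x axis, percent of probes tested, adjusted p under 0.05 in limma) in each of the 16 comparisons (y axis). Filled points are the 134 ribosomal protein probes and open points all probes tested. Members lie to the right in the 4 within-array ratios (58.2% to 61.9%) and to the left in 11 of the other 12 comparisons, the exception being Cy5 at 16 h (25.4% against 18.8%).

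Within arrays the members lay on the Cy5 side in every group. In resting cells at 2 h, 73 probes were higher and 5 lower in Cy5 (58.2% called, against 12.6% of all probes). In activated cells at 2 h the counts were 81 and 1 (61.2% against 32.9%). At 16 h they were 74 and 8 in resting cells (61.2% against 18.8%) and 75 and 8 in activated cells (61.9% against 27.7%). The median log2 ratio of the 134 probes was 0.21, 0.19, 0.22 and 0.22 in these groups, where the median over all probes was 0.00 or 0.01. On single arrays the members' median ran from 0.13 (resting 2 h, replicates 2 and 4) to 0.30 (resting 2 h, replicate 3), so the 4 resting arrays at 2 h spanned the medians of all the other groups. Large-subunit probes had medians of 0.19 to 0.23 over the groups and small-subunit probes 0.25 to 0.29. The size hangs on the scaling: with the deposited processed signals the members' medians were 0.09 to 0.11, and with each array's ratios centred on their median in place of loess they were 0.85 to 1.03, where all probes shifted to 0.18 to 0.34.

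**Figure D2:**
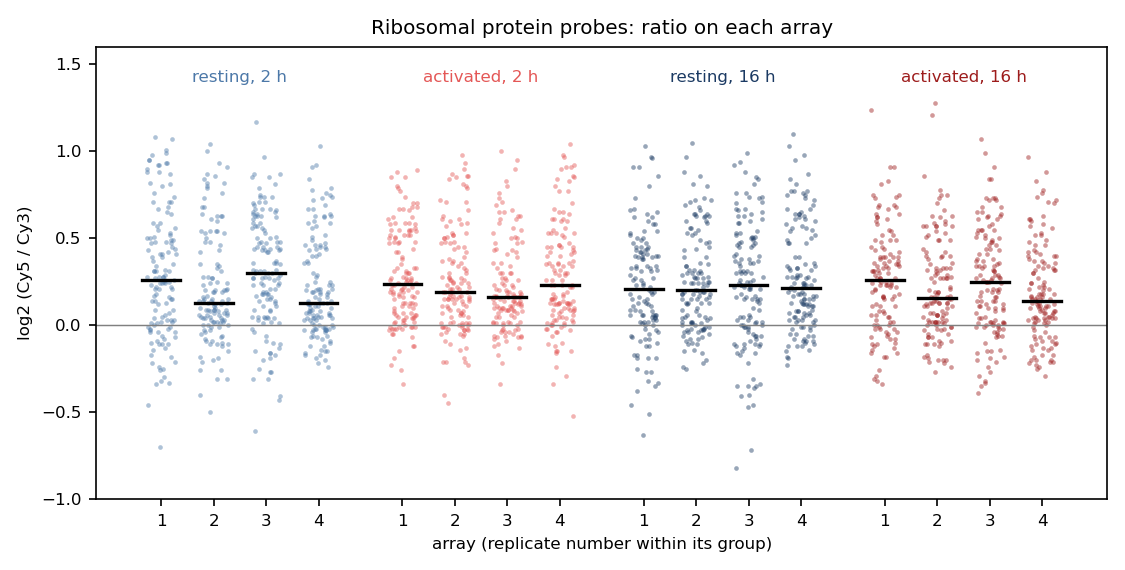
The log2 ratio of Cy5 (anti-TIM-3) over Cy3 (IgG), y axis, of the 134 ribosomal protein probes on each of the 16 arrays, x axis, grouped by condition. Each point is a probe and the black bar is the array's median, which lies between 0.13 and 0.30 on every array with no separation of the 4 groups.

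Ratios differed more between probes than between groups. The SD between probes of the mean over the 4 groups was 0.276, whereas the median SD between the 4 group means of a probe was 0.0838 and between the arrays of a group 0.103. All 4 group means were above 0 for 94 probes, below 0 for 4 and on both sides for 36. Over the 134 probes the group means of any 2 groups correlated at 0.75 to 0.93 (Pearson, as a description over probes, which are not replicates and share the dye orientation), against 0.18 to 0.60 over all probes. The highest mean ratios belonged to Rpl41 (0.96, array values 0.77 to 1.21 on the 11 of 16 arrays with no outlier spot), which encodes a very small basic protein, Rps23 (0.95, 0.79 to 1.17), a protein of the decoding centre, Rplp1 (0.89, 0.62 to 1.28), Rps18 (0.88, 0.74 to 1.03 on 13 arrays, probe A_51_P287677) and Rpl12 (0.82, 0.72 to 0.93), which sits at the base of the stalk. The lowest belonged to both the clone probe A_52_P678800 of Rps21 (-0.24, -0.82 to 0.15) and its RefSeq probe A_52_P740562 (-0.14, -0.72 to 0.29), to Rpl4 (-0.18, -0.70 to 0.08), whose loop lines the exit tunnel, to Rpl7a probe A_52_P548790 (-0.18, -0.40 to -0.02) and to Rplp0 (-0.18, -0.33 to 0.06). Arrays of the lowest members reached both sides of 0 for all but the Rpl7a probe, whereas every measured array of the highest 5 lay above 0.

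The high ratios went with brightness and with the scanner setting. The software replaces the brightest readings by a second scan at low gain, scaled up. Of the members, 44.0% to 60.4% in Cy3 and 64.9% to 71.6% in Cy5 were read that way on an array, against 0.796% to 2.24% and 2.98% to 5.48% of other tested probes. The median member's spot signal lay above that of 98.6% of tested probes, and 58 of the 254 probes in the brightest 1% were members. Spot signal depends on the probe's sequence and is not read here as a level of one gene against another. The 57 members read at low gain in both channels on all arrays had a median mean ratio of 0.52 (0.06 to 0.96), and the 167 other probes read that way had 0.36. The 38 members read at full gain in both channels on all arrays had 0.04 (-0.24 to 0.25), and the 23693 other such probes had 0.01. In resting cells at 2 h, 53 of the 57 low-gain members (93.0%) were called higher in Cy5, as were 128 of the 167 other low-gain probes (76.6%). Of the 38 full-gain members, 3 were higher and 2 lower there (13.2%, against 11.1% of other full-gain probes). In activated cells at 2 h, 15 full-gain members were higher and 0 lower (39.5%). Other full-gain probes were 4117 higher and 3394 lower there (31.7%). At 16 h, 5 full-gain members were higher and 4 lower in resting cells (23.7%, against 17.1%). In activated cells 9 were higher and 5 lower (36.8%, against 26.1%). A higher ratio was thus shared by bright probes outside the ribosome, and the part of the scanner reading, of the dyes and of the antibody in it cannot be told apart in arrays of 1 dye orientation.

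**Figure D3:**
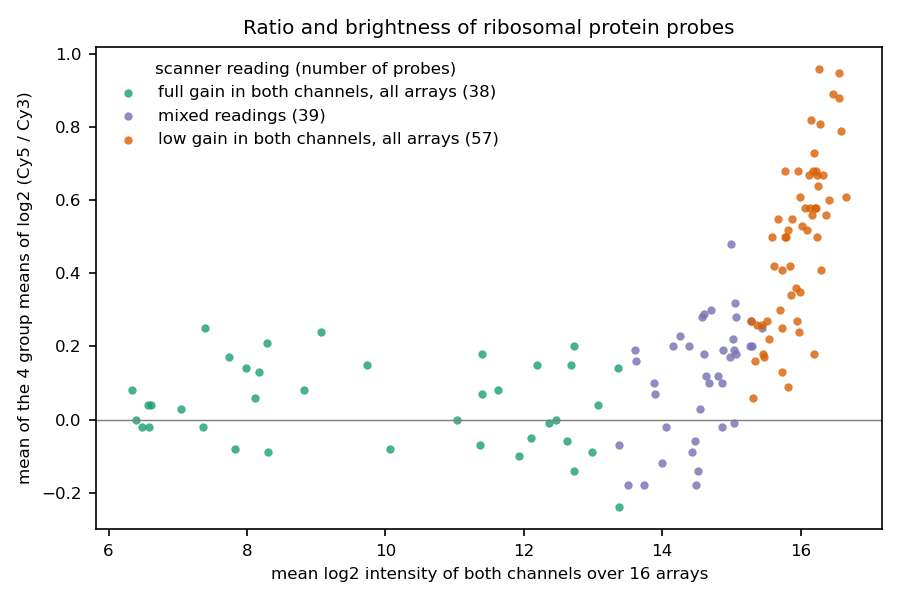
Mean of the 4 group means of log2 (Cy5/Cy3), y axis, against the mean log2 intensity of both channels over 16 arrays, x axis, for the 134 ribosomal protein probes. Colours give the scanner reading: 38 probes at full gain on all arrays (median ratio 0.04), 57 at low gain in both channels on all arrays (0.52), and the rest with mixed readings (3 at low gain in Cy5 alone, 36 changing between arrays). Ratios run from -0.24 to 0.25 at full gain and from 0.06 to 0.96 at low gain.

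Probes of a single gene often gave different ratios. Of the 82 genes, 40 had at least 2 kept probes, with a median gap of 0.23 between the lowest and highest mean ratio. The gap exceeded 0.5 in 9 genes, and in 15 genes the probes lay on opposite sides of 0. The widest gap was in Rpl7a, where 3 probes of the same RefSeq mRNA gave -0.18, -0.02 and 0.81. Rps18 followed (0.04 for a clone probe, 0.67 and 0.88 for RefSeq probes), then Rpl23 (-0.14 and 0.68) and Rps3 (-0.07 and 0.61). The narrowest gaps were in Rpl6 (0.19 for both probes) and Rpl36 (0.10 for both). In Rpl7a, probe A_52_P548790 measured -0.16 ± 0.10 (SD, n = 4) in resting cells at 2 h, where probe A_52_P436206 of the same mRNA measured 0.81 ± 0.03 (SD, n = 4). Outlier spots left the latter probe with 1 measured array in resting cells at 16 h. These signs are opposite and both were called, so a gene has no single ratio here. Many ribosomal protein genes have processed pseudogenes and near-identical copies, and the probe sequences were not used here, so signal from a copy was not separated from the gene's own.

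**Figure D4:**
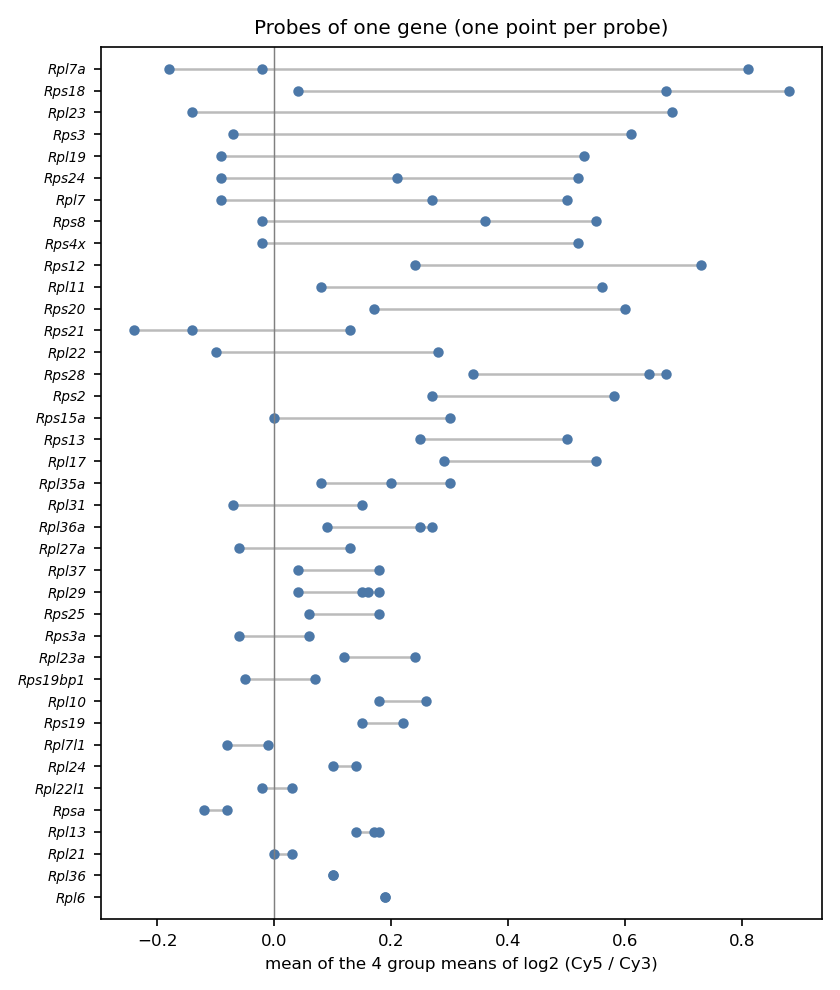
Mean of the 4 group means of log2 (Cy5/Cy3), x axis, for 39 of the 40 ribosomal protein genes with at least 2 kept probes, y axis, ordered by the gap between their probes. Each point is a probe and a grey line joins probes of a gene; Rpl7a spans -0.18 to 0.81 and 15 genes have probes on both sides of 0.

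Repeat spots of a single probe differed little within an array. Rplp0, the stalk's anchor protein, has 1 probe printed at 10 spots per array, whose ratios had an SD of 0.018 to 0.052 within an array. Its array means in resting cells were -0.30, -0.31, -0.10 and -0.24 at 2 h and 0.06, -0.16, 0.00 and -0.19 at 16 h. In activated cells they were -0.19, -0.21, -0.06 and -0.29 at 2 h and -0.16, -0.19, -0.33 and -0.29 at 16 h. The Cy5 side was thus lower on 14 of 16 arrays, opposite to most members, and the 2 arrays at 0 or above were of resting cells at 16 h. It was called lower in every group but that one (adjusted p 0.00452, 0.00783 and 0.00142).

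The difference in ratio between groups removes a dye bias that all arrays share, and few members passed its test. It asks whether the response to anti-TIM-3 differs between groups. A response of equal size in every group cancels with the dye bias, so few passes do not show that few members respond. With antigen at 2 h, 1 of 134 member probes differed between activated and resting cells (0.746% called, against 5.64% of all probes). That probe, A_52_P103513, carries a clone sequence named Rpl13. Its ratios were -0.11, -0.05, 0.04 and -0.01 in resting and 0.24, 0.38, 0.16 and 0.30 in activated cells, so the groups did not overlap (difference 0.30, SE 0.06, adjusted p 0.00502). The other 2 Rpl13 probes, of the RefSeq mRNA, differed by -0.08 and -0.03. Within the slides that held both groups the difference of the clone probe was 0.42 (slide 2) and 0.19 (slide 3).

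At 16 h, 6 of 134 differed between activated and resting cells, 2 higher and 4 lower (4.48% called, against 6.86% of all probes). Rps19, a small-subunit protein mutated in Diamond-Blackfan anaemia, had ratios of -0.32, -0.02, -0.34 and 0.12 in resting and 0.41, 0.33, 0.25 and 0.05 in activated cells on probe A_51_P337290 (difference 0.40, SE 0.10, adjusted p 0.0255), so the groups overlapped at 1 array. Its other probe, of a clone, differed by 0.13. Rplp1 of the stalk had 0.80, 0.70 and 0.76 in resting cells (1 array had an outlier spot) and 1.24, 1.28, 1.07 and 0.97 in activated cells (difference 0.39, SE 0.09, adjusted p 0.0200), with no overlap. Rpl5, which carries 5S RNA into the large subunit, had 0.86, 0.88, 0.94 and 0.77 against 0.49, 0.49, 0.62 and 0.49 (difference -0.34, SE 0.06, adjusted p 0.00344), again with no overlap. Rps16 differed by -0.33 and probe A_52_P391718 of Rpl22 by -0.30, and Rpl37a, named after its values were seen, was the remaining call (-0.24, adjusted p 0.0177). Within slides 1 and 4, which held both groups, Rpl5 differed by -0.37 on each. The calls of Rps19, Rps16 and Rpl22 were lost with the deposited processed signals (adjusted p 0.0551, 0.0909 and 0.0606), and those of Rpl5, Rps16 and Rpl22 with median centring (-0.13, -0.13 and -0.18), which raised the members' median difference to 0.14 and turned the split to 9 higher and 0 lower. The Rplp1 call was lost without activated replicate 1 or 2 (adjusted p 0.0717 and 0.0614), without resting replicate 3 (0.0852) and without the 3 narrow arrays (0.0630). Calls of Rps19, Rps16 and Rpl22 were lost without several single arrays of either group, resting replicates 1 and 3 among them for each of the 3.

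Over time in resting cells, 0 of 134 members differed in ratio between 16 h and 2 h by limma (31 at an unadjusted p under 0.05), in a comparison that called 0.15% of all probes. The smallest unadjusted p belonged to Rpl28 and Rps2. Rpl28 had ratios of 0.07, 0.09, 0.24 and 0.13 at 2 h and 0.42, 0.36, 0.36 and 0.34 at 16 h, without overlap, a difference of 0.24 (SE 0.06, adjusted p 0.0821) and Rps2 probe A_51_P362278 by 0.25 (SE 0.06, adjusted p 0.0866). Both were called without resting 2 h replicate 3 (0.27, adjusted p 0.0211, and 0.31, adjusted p 0.0180), and Rpl28 also without the 3 narrow arrays (0.26, adjusted p 0.0483). This count rests on single arrays: without resting 2 h replicate 3 it rose to 17.2% (15 higher, 8 lower, against 11.4% of all probes), without resting 16 h replicate 4 to 4.51% (2.80% of all), and without the 3 narrow arrays to 27.8% (10 higher, 27 lower, against 15.6%). The last setting also moved the difference between activated and resting cells at 16 h to 20.3% (14 higher, 13 lower, against 14.3% of all).

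Over time in activated cells, 7 of 134 differed, 3 higher and 4 lower at 16 h (5.22% called, against 15.6% of all probes). Rplp1 rose from ratios of 0.62, 0.85, 0.90 and 0.90 to 1.24, 1.28, 1.07 and 0.97 (difference 0.32, SE 0.09, adjusted p 0.0183). Rps27l, a p53-induced paralog, rose from 0.06, 0.05, 0.02 and 0.12 to 0.36, 0.36, 0.27 and 0.36 (difference 0.28, adjusted p 0.0292), and Rps2 rose by 0.26 (adjusted p 0.00808). A clone probe of Rps24 fell by 0.30, probe A_51_P132459 of Rpl27a fell by 0.27, and probe A_52_P232909 of Rps28 fell by 0.26. Rpl23 probe A_51_P108190, named after its values were seen, was the remaining call (-0.26, adjusted p 0.00822). The arrays of the 2 times did not overlap for Rplp1 or for Rps27l. Only slide 3 held activated cells of both times, with a single array at 16 h. On it the differences were 0.17 for Rplp1, 0.20 for Rps27l and 0.18 for Rps2. They were -0.45 for Rps24, -0.31 for Rpl27a and -0.40 for Rps28. The calls of Rpl27a and Rps28 were lost with median centring (-0.09 and -0.16), which gave 5 higher and 1 lower among the members, that of Rps28 with the processed signals (adjusted p 0.102), and those of Rplp1, Rps27l and Rps28 without several single arrays (adjusted p up to 0.124). None of the 134 probes reached a 1.5-fold difference in ratio in any of the 4 comparisons.

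The Cy3 channel compares activated with resting cells that had received control IgG in place of the antibody. At 2 h, 6 member probes were higher and 9 lower in activated cells (11.2% called, against 42.9% of all probes). The median change of the members was -0.02 on the log2 scale, and the median size of a change was 0.07 against 0.16 over all probes. Both probes of Rps19bp1 rose. Its probe A_52_P474797 had levels of 11.46, 11.39, 11.70 and 11.50 in resting and 11.99, 11.86, 11.93 and 11.89 in activated cells (1.32-fold, log2 change 0.40, SE 0.06, adjusted p 3.24e-05), and the other probe rose 1.28-fold. A clone probe of Rpl27a (A_51_P418662) rose from 7.96, 8.30, 8.22 and 8.08 to 8.63, 8.50, 8.53 and 8.59 (1.34-fold, adjusted p 4.06e-05), while the RefSeq probe of Rpl27a changed by -0.14 without passing the test. Rpl22, a large-subunit protein that binds RNA, fell on probe A_52_P391718 from 12.06, 11.92, 12.20 and 11.82 to 11.48, 11.45, 11.49 and 11.52 (log2 change -0.51, SE 0.08, adjusted p 3.66e-05), and its other probe fell by 0.20. For these 3 probes the groups did not overlap. Rps9 fell by 0.34 and Rps15 by 0.30, calls that were lost when arrays were scaled on their 75th percentile (-0.14 and -0.19). That scaling raised the members' median to 0.15 and gave 23 higher and 2 lower, so the balance of the members' direction with antigen depends on the scaling, whereas the calls of Rps19bp1, Rpl27a and the Rpl22 probe A_52_P391718 did not. Within slides 2 and 3 that Rpl22 probe differed by -0.59 and -0.69.

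At 16 h, 0 members were higher and 5 lower with antigen in Cy3 (3.73% called, against 11.1% of all probes). The members' median change was -0.06 and its median size 0.09. Rplp1 fell from 16.09, 16.23 and 16.21 (3 arrays) to 15.70, 15.75, 15.77 and 15.98, without overlap (log2 change -0.38, adjusted p 0.0129). A clone probe of Rps24 fell by 0.38, and Rpl22l1 fell from 15.03, 14.82, 15.02 and 14.74 to 14.69, 14.65, 14.60 and 14.65 (log2 change -0.26, adjusted p 0.0264). Rps19 (-0.20) and, named after its values were seen, Rps15a probe A_52_P577019 (-0.25) were the other calls. The calls of Rplp1 and Rpl22l1 were lost with 75th percentile scaling (adjusted p 0.0521 and 0.0612), that of Rplp1 also without resting replicate 3 (0.0548) and without the narrow arrays (0.111), and that of Rpl22l1 without any of 5 single arrays (0.0540 to 0.0889). In Cy5 the same contrast gave 5 higher and 29 lower (25.4%, against 18.8% of all probes), with a median change of -0.07. Of the 109 tested probes of RefSeq mRNAs of the ribosome proper, 27 were lower and 0 higher (24.8%). Of the 17 with a clone or other sequence, 1 was lower and 4 higher (29.4%). Of the 8 of paralogs and Rps19bp1, 1 was lower and 1 higher (25.0%). The called share was thus similar in these classes. That the members' share lay above that of all probes did not hold throughout. With 75th percentile scaling 1 member was higher and 1 lower (1.49%, against 8.51% of all probes). Without resting replicate 3 the shares were 11.2% and 12.3%, and with only the groups compared in the fit 15.7% and 15.5%. Leaving out other single arrays gave up to 25.6% of members. Named by size, Rps3a fell by 0.37 (adjusted p 0.00162, probe A_52_P49886), Rpl7 by 0.39 and the model sequence of Rpl21 by 0.40, while probes of clone sequences of Rpl11, Rps12 and Rps13 rose by 0.45, 0.33 and 0.33. All of these but Rps3a lost their call with 75th percentile scaling (adjusted p 0.05 to 0.148), where the changes were 0.46 for Rpl11, 0.33 for Rps12, 0.36 for Rps13, -0.36 for Rpl21 and -0.31 for Rpl7. Of these the Rpl11, Rpl21 and Rpl7 calls were also lost without several single arrays, and that of Rps13 without the narrow arrays (0.0581).

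Antigen at 2 h in Cy5, the anti-TIM-3-treated cells, gave 11 higher and 8 lower (14.2%, against 45.9% of all probes). The Rpl27a clone probe rose 1.42-fold, Rps19bp1 probe A_52_P474797 rose 1.42-fold and Rpl22 probe A_52_P391718 fell by 0.44. Both channels were read from the same arrays, and the difference in ratio between the groups was not called for any of these 3 probes. A clone probe of Rps24 (A_52_P100002) rose 1.38-fold. Rpl22 probe A_51_P387878 fell by 0.19 and changed sign with 75th percentile scaling (0.04, adjusted p 0.745), which gave 24 higher and 2 lower among the members. The processed signals gave 11 higher and 19 lower (22.4%).

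**Figure D5:**
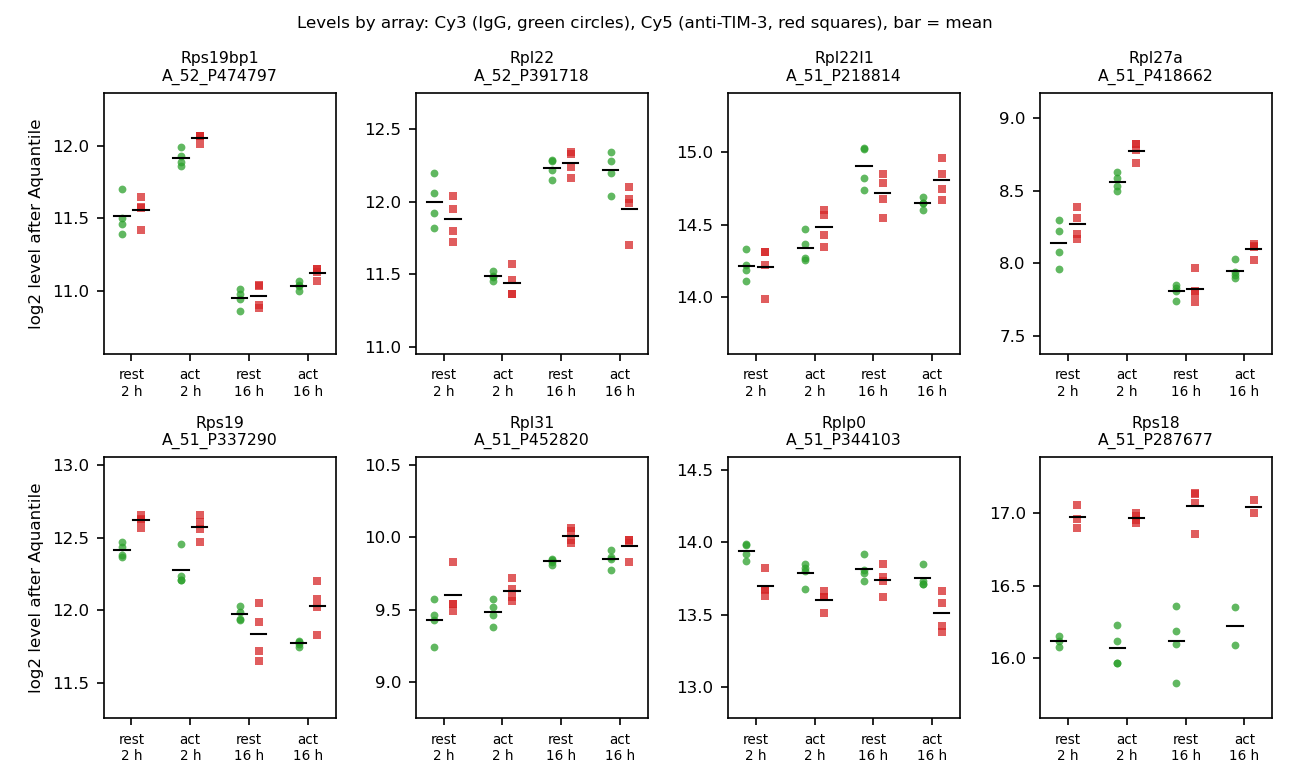
Log2 levels after Aquantile normalization (y axis, each panel spans 1.8 log2 units) of 8 probes in the 4 groups (x axis), with green circles for Cy3 (IgG), red squares for Cy5 (anti-TIM-3) and bars for means of the arrays shown. Rps19bp1, Rpl22, Rpl22l1, the Rpl27a clone probe, Rps19, Rpl31 and Rplp0 each have a called change with time or antigen in both channels. Arrays with an outlier spot are missing (3 of 16 for Rps18).

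Between 2 h and 16 h in resting cells, 14 members were higher and 17 lower in Cy3 (23.1% called, against 47.6% of all probes). Rpl22l1, the paralog that can take the place of Rpl22, had the largest rise, from 14.11, 14.22, 14.19 and 14.33 to 15.03, 14.82, 15.02 and 14.74 (1.61-fold, log2 change 0.69, SE 0.07, adjusted p 5.07e-07), with no overlap. Rpl31 probe A_51_P452820 rose from 9.57, 9.46, 9.24 and 9.43 to 9.83, 9.81, 9.84 and 9.85 (1.33-fold, adjusted p 4.36e-05), and the second Rpl31 probe rose by 0.28. Rplp2 rose by 0.35, a call lost with 75th percentile scaling (0.25, adjusted p 0.0746). Both Rps19bp1 probes fell by 0.57, and Rps15, a small-subunit protein near the decoding site, fell by 0.46. In Cy5, 18 were higher and 19 lower (27.6%, against 45.1% of all probes). Named by size were Rpl22l1 (1.42-fold), Rpl31 (1.33-fold) and Rpl22 (1.31-fold) upward and Rps19bp1 (-0.59 and -0.49) downward. Rps19 probe A_51_P337290 fell furthest, from 12.66, 12.63, 12.57 and 12.62 to 11.72, 11.92, 11.65 and 12.05 (log2 change -0.78, SE 0.09, adjusted p 1.49e-06), whereas the Rps19 clone probe A_52_P404955 changed by -0.07, not called. By subunit, 13 large-subunit probes were higher and 2 lower in Cy5, against 4 higher and 12 lower of the small subunit, and in Cy3 the counts were 9 and 4 against 4 and 9. The difference between the subunits was not tested. The Cy5 count fell to 17.2% without resting 2 h replicate 2, to 17.9% without resting 16 h replicate 3 and to 10.4% (7 higher, 7 lower) with 75th percentile scaling.

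Between 2 h and 16 h in activated cells, 13 members were higher and 28 lower in Cy3 (30.6% called, against 61.2% of all probes), and the median size of a change was 0.10 against 0.26. Rpl22 probe A_52_P391718 rose from 11.48, 11.45, 11.49 and 11.52 to 12.04, 12.28, 12.34 and 12.20 (1.66-fold, SE 0.08 on the log2 scale, adjusted p 2.91e-07). Its mean at 16 h was 12.22 ± 0.13 in activated and 12.23 ± 0.06 in resting cells (SD, n = 4). The RefSeq probe of Rpl27a rose 1.30-fold and Rpl31 rose 1.29-fold. Rps19bp1 fell most, from 12.72, 12.68, 12.68 and 12.61 to 11.89, 11.75, 11.80 and 11.80 on probe A_51_P176505 (0.550-fold, adjusted p 2.99e-10) and by 0.88 on the other probe, and the Rpl27a clone probe fell by 0.61. In Cy5, 12 were higher and 33 lower (33.6%, against 61.8% of all probes), led by Rpl22 (1.43-fold) upward and Rps19bp1 (-0.93 and -0.81) and the Rpl27a clone probe (-0.68) downward; the clone probes of Rpl11 and Rps13 rose 1.32-fold and 1.26-fold, the latter call being lost with 75th percentile scaling (adjusted p 0.0937). The Cy3 split became 5 higher and 44 lower with 75th percentile scaling and 10 and 36 with the processed signals. The Cy5 split became 3 and 57, and 27 and 23, so the balance of directions in Cy5 depends on the scaling.

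Called changes were unevenly spread over the members. Among the 57 members read at low gain in both channels, Cy3 levels changed with time in 8.77% in resting and 8.77% in activated cells, against 26.3% and 29.3% of the 167 other probes read that way. With antigen at 2 h the shares were 1.75% against 13.8%. Among the 38 members read at full gain the shares were 47.4% and 71.1% over time, against 47.3% and 61.1% of other full-gain probes, and 23.7% against 43.2% with antigen at 2 h. Of the 109 probes of the ribosome proper that carry a RefSeq mRNA, 24.8% were called in Cy3 over time in activated cells. The share was 52.9% of the 17 that carry a clone or other sequence and 62.5% of the 8 of paralogs and Rps19bp1. Over all probes 61.2% were called in that contrast. These splits describe the list and were not tested.

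The stalk, which recruits elongation factors, is formed by Rplp0 with Rplp1 and Rplp2. Rplp0 Cy3 levels were 13.99, 13.98, 13.92 and 13.87 in resting cells at 2 h and 13.85, 13.82, 13.68 and 13.80 in activated cells, a fall of 0.15 without overlap (adjusted p 0.0313). With 75th percentile scaling 2 members were lower in that contrast, Rpl22 probe A_52_P391718 among them, and the Rplp0 call was not followed there. Over time Rplp0 changed by -0.12 in resting and -0.03 in activated cells, neither called (adjusted p 0.0703 and 0.613). In Cy5 it fell by 0.23 with antigen at 16 h (adjusted p 0.0274). With 75th percentile scaling Rps3a was the only member called lower in that Cy5 contrast, so this call was lost. Rplp2 ratios were 0.99, 0.76, 0.65 and 0.73 in resting cells at 2 h and 0.26, 0.69, 0.30 and 0.61 at 16 h, so the groups overlapped (difference -0.31, not called). For Rplp1 at 16 h, the Cy3 level was lower with antigen (15.80 ± 0.12 against 16.18 ± 0.08), beside Cy5 levels of 16.94 ± 0.08 (n = 4) against 16.93 ± 0.04 (n = 3, SD). Rpsa, the small-subunit protein also known as the laminin receptor, fell by 0.24 with antigen at 2 h on 1 probe, and its other probe changed by 0.14 (not called). The fall of Rpsa was not followed under other scalings either. Both Rpsa probes had ratios below 0 in resting cells at 16 h (-0.30 and -0.23, both called).

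Rpl5 and Rpl11 enter the large subunit together with 5S RNA and, when free, bind the p53 regulator MDM2. Rpl5 Cy3 group means were 15.76, 15.86, 15.82 and 15.95 in resting 2 h, activated 2 h, resting 16 h and activated 16 h cells, and no Cy3 contrast was called. The RefSeq probe of Rpl11 had 15.89, 15.87, 15.92 and 15.82, also with no call. In Cy5, Rpl5 fell by 0.21 with antigen at 16 h (adjusted p 0.0217) and rose by 0.17 over time in resting cells (adjusted p 0.0254). The call of the fall was lost with 75th percentile scaling, where Rps3a was the only member called lower with antigen at 16 h. At 16 h the ratio of Rpl5 was lower with antigen (0.52 ± 0.07 against 0.86 ± 0.07, SD, n = 4), and that of Rpl11 was 0.60 ± 0.07 against 0.51 ± 0.12 and was not called. The difference between the 2 genes was not tested. At the tunnel exit, where nascent chains meet the signal recognition particle, Rpl35 had Cy3 means of 15.27, 15.33, 15.17 and 15.20 and Rpl23a (probe A_51_P127516) 15.81, 15.83, 15.98 and 15.75, with no Cy3 call for either. Ratios of that Rpl23a probe were 0.42, 0.50, 0.27 and 0.29 at 2 h and 0.00, 0.22, -0.12 and 0.17 at 16 h in resting cells, a difference of -0.30 without overlap that was not called (adjusted p 0.109). Its second probe, A_52_P685714, differed by -0.25 (adjusted p 0.124).

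Rps6, the small-subunit protein that S6 kinase phosphorylates, had Cy3 levels of 14.77, 14.50, 14.61 and 14.52 in resting and 14.45, 14.31, 14.27 and 14.31 in activated cells at 2 h, a fall of 0.26 without overlap (adjusted p 0.00278). With 75th percentile scaling 2 members were lower in that contrast, Rpl22 probe A_52_P391718 among them, and the Rps6 call was not followed there. Rps6 also fell by 0.20 over time in resting cells. Rps3, which also acts in DNA repair, differed between its 2 RefSeq probes. Probe A_51_P318642 had Cy3 means of 15.75, 15.69, 15.66 and 15.62 with no call, and probe A_52_P768 fell by 0.43 in resting and 0.37 in activated cells over time, both called. Rpl13a, which can leave the ribosome to repress inflammatory mRNAs, had Cy3 means of 14.85, 14.71, 14.74 and 14.72 and no Cy3 call. Its ratios were 0.50, 0.48, 0.57 and 0.52 in resting cells at 2 h, and its Cy5 level fell by 0.17 with antigen at 2 h (adjusted p 0.0456). With 75th percentile scaling 24 members were higher and 2 lower in that Cy5 contrast, where the Rpl13a call was not followed. For Rps19, probe A_51_P337290 fell over time by 0.44 and 0.50 in Cy3 in resting and activated cells, both called, while the clone probe A_52_P404955 changed by 0.10 and -0.08.

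Paralogs were set beside the genes they are named for. Rpl22 and Rpl22l1 both had higher Cy3 levels at 16 h in resting cells on 1 probe each (0.24 and 0.69), whereas Rpl22 probe A_51_P387878 changed by -0.14 and the second Rpl22l1 probe by -0.06, neither called. With antigen at 2 h both Rpl22 probes were lower while Rpl22l1 changed by 0.13 in Cy3, not called, and rose by 0.28 in Cy5 (adjusted p 0.0151). Rpl7l1, which is thought to act in ribosome assembly, fell over time on both probes in resting (-0.18 and -0.24) and activated cells (-0.39 and -0.42), all 4 called, whereas of 3 Rpl7 probes 1 fell in activated cells (-0.30) and the others changed by -0.07 and -0.11. Rps27l and Rps27 had no Cy3 call. Rpl3 had none either, and Rpl3l, the muscle form, was well above background on 4 of 16 arrays in Cy3 and 7 in Cy5. The X-linked genes Rpl10, Rpl39 and Rps4x had no Cy3 call in any contrast on their RefSeq probes, and a clone probe of Rps4x fell by 0.44 and 0.39 over time in resting and activated cells. Paralogs named Rpl10l, Rpl39l and Rps4l were not analysed here.

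Both probes of Rps19bp1 changed with antigen at 2 h and with time in both dyes. Cy3 levels of probe A_51_P176505 were 12.31 ± 0.10, 12.67 ± 0.04, 11.74 ± 0.05 and 11.81 ± 0.06 in resting 2 h, activated 2 h, resting 16 h and activated 16 h cells (SD, n = 4). Cy5 levels were 12.19 ± 0.07, 12.63 ± 0.02, 11.70 ± 0.09 and 11.82 ± 0.04. It rose with antigen at 2 h, fell between 2 h and 16 h in both kinds of cells, and at 16 h differed by 0.07 in Cy3 between them, not called. On probe A_52_P474797 the Cy5 level at 16 h was 0.16 higher with antigen (adjusted p 0.0487). No difference in ratio between groups was called on either probe.

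Other genes of translation were set beside the members from lists written from general knowledge. Of 32 probes of other TOP mRNAs and elongation factors, 10 were higher and 3 lower in Cy3 over time in resting cells (40.6%, against 47.6% of all probes) and 8 and 6 in activated cells (43.8%, against 61.2%). Of 107 probes of initiation factors, 12 rose and 53 fell in resting cells (60.7%) and 18 rose and 59 fell in activated cells (72.0%), with medians of -0.17 and -0.27. The members' medians in the same contrasts were 0.02 and -0.05. Of 118 probes of mitochondrial ribosomal proteins, 13 rose and 43 fell in resting cells (47.5%), and 8 rose and 35 fell with antigen at 2 h (36.4%, against 42.9% of all probes). In the within-array ratios the medians over the 4 groups were 0.09 to 0.13 for the TOP list, -0.03 to 0.05 for mitochondrial ribosomal proteins, 0.01 to 0.06 for initiation factors and 0.06 to 0.20 for 45 probes of abundant genes outside translation, beside 0.19 to 0.22 for the members. The TOP list was called in 43.8% to 62.5% of probes and the abundant genes in 44.4% to 53.3%, so a high share of called ratios was not confined to the members. Of the ratio differences, 21 mitochondrial ribosomal protein probes were higher and 1 lower over time in activated cells (18.6%, against 15.6% of all probes), beside 3 and 4 members.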

How the data were processed

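RNA of 16 pairs of mast cell samples was hybridised to 16 two-colour Agilent arrays, 4 in each of 4 groups, on 4 slides of 4 arrays. Spot intensity values in both channels were deposited as the authors' scanner output, made with Agilent Feature Extraction 9.1.3.1 per the file headers (version 9 per the submitters' processing notes). The authors' deposited value table holds that software's log10 ratio of Cy5 over Cy3, with a largest difference of 0 from the scanner files.

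Mean signals were background-corrected (normexp, offset 50) and loess-normalized within each array, with control and outlier spots at weight 0. Aquantile normalization gave single-channel log2 levels, and spots of a probe were averaged. Leaving out outlier spots removed 40 array values of members. Kept probes were well above background, in Cy3 or in Cy5, on 3 or 4 arrays of some group (25394 of 41174). Each probe was fitted over all 16 arrays with limma 3.58.1 (lmFit, eBayes; R 4.3.3), with Benjamini-Hochberg adjustment over all kept probes at 0.05, and the fit was tested on simulated data. Tables and plots used Python 3.11.15, pandas 2.3.3 and matplotlib 3.10.9. The number of arrays limits the precision.

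Replicate numbers are shared between groups. Arrays of the same number correlated in their deviations from group means at -0.45 to 0.62 (median 0.12, 12 of 24 pairs over 0.1). Arrays of other numbers correlated at -0.59 to 0.53 (median -0.05, 23 of 72 pairs over 0.1). The labels do not say whether equal numbers mark a shared culture, and these values do not settle it. No pairing was used in the main fit, and a replicate block was tried as an alternative. The slide was tried as a random block (correlation -0.033 for ratios, 0.151 for Cy3, 0.042 for Cy5).

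Named with values were the 3 largest called changes in each direction of each contrast, the 5 highest and 5 lowest mean ratios, the 4 widest and 2 narrowest gaps between probes, and fixed sets (stalk, 5S particle, tunnel exit, Rps6, Rps3, Rpl13a, Rps19, Rpsa and paralogs). The highest and lowest Cy3 levels, also in the rule, were left out because levels of different probes are not comparable. Members and lists were chosen with earlier results of these data known. Alternatives were other signals, scalings, filters, blocks and probe summaries, and leaving out arrays. For single probes they were followed only where a contrast named the probe by size of change or smallest p. Other calls of the fixed sets were not followed. Of the probes that the rule names, 1 is not reported here.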

Additional observations from a re-analysis of the deposited data

Results flagged for a closer look

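Of 112 sets of arrays looked at, 11 held a lone array, whose gap to the nearest other array exceeded Dixon's 95% critical share of the set's range. The 112 include sets with an array missing, such as Rplp1 in resting cells at 16 h, which could not be flagged. Chance gives about 1 in 20 of the sets with 4 arrays.

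In the median Cy3 level of the members, activated 2 h replicate 2 lay at 14.95 (others 14.85 to 14.86) and activated 16 h replicate 1 at 14.69 (others 14.84 to 14.85). Among log2 ratios the lone arrays were activated 16 h replicate 3 for Rpl5 (0.62, others 0.49) and for Rps27l (0.27, others 0.36), resting 16 h replicate 3 for Rps2 (0.65, others 0.72 to 0.73) and activated 2 h replicate 1 for Rpl27a (-0.01, others 0.15). Among Cy3 levels they were resting 16 h replicate 2 for Rps19bp1 (11.66, others 11.76 to 11.77) and activated 16 h replicate 4 for Rpl27a (12.85, others 12.76 to 12.78). Among Cy5 levels they were activated 2 h replicate 4 for Rps19bp1 (12.01, others 12.07), resting 16 h replicate 4 for Rps13 (7.25, others 7.48 to 7.52) and resting 2 h replicate 1 for Rpl31 (9.83, others 9.49 to 9.54).

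A difference between groups in the Cy5 over Cy3 ratio, tested in limma at an adjusted p under 0.05, gave 12 calls among 11 of the probes named by the rule. The calls of Rpl37a and Rpl23, named after their values were seen, are given above. Activated minus resting at 2 h it was 0.30 for Rpl13. At 16 h it was 0.40 for Rps19, 0.39 for Rplp1, -0.34 for Rpl5, -0.33 for Rps16 and -0.30 for Rpl22. Between 16 h and 2 h in activated cells it was 0.32 for Rplp1, 0.28 for Rps27l, 0.26 for Rps2, -0.30 for Rps24, -0.27 for Rpl27a and -0.26 for Rps28.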

How the results depend on the processing

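Values are shares of members called. Under the alternatives 223 such shares stayed within 1.5 times the value reported and 65 did not. Of 58 named probe results, 20 lost their call under at least 1 alternative (79 of 969 values). A further 1, Rpl22 in Cy5 with antigen at 2 h, changed sign and was no longer called there (limma adjusted p 0.745). Rpl28 and Rps2 over time in resting cells, also among the 58, had no call to lose. Of the 12 called ratio differences named by the rule, only those of Rpl13, Rps2 and Rps24 kept their call in every alternative followed.

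With Agilent's processed signals the ratios in resting cells at 2 h and 16 h and in activated cells at 16 h gave 31.3%, 36.6% and 41.0%. All probes gave 11.8%, 15.3% and 25.7% there. The ratio difference with antigen at 16 h gave 1.49% (all probes 5.38%), and Cy5 with antigen at 2 h 22.4% (47.9%). With median centring or 75th percentile scaling the ratios gave 91.8% and 94.0% at 2 h and 95.5% in both groups at 16 h, where all probes gave 57.3%, 63.1%, 70.3% and 77.3%. The ratio differences with antigen gave 1.49% at 2 h (all probes 5.3%) and 6.72% at 16 h (10.5%). Cy3 with antigen gave 18.7% (30.2%) at 2 h and 0.746% (4.38%) at 16 h. Cy5 gave 1.49% with antigen at 16 h (8.51%) and 10.4% over time in resting cells (33.7%). Rpl22 (0.04) changed sign in Cy5 at 2 h.

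With the replicate block the ratio difference at 16 h gave 8.21% (2 higher, 9 lower, against 8.83% of all probes), and the shares of the other comparisons stayed within 1.5 times. With only the groups compared in the fit, the resting 2 h ratio gave 30.6% (all probes 1.19%). The ratio differences at 16 h and over time in activated cells gave 6.72% (6.06%) and 11.2% (20.6%). Cy3 and Cy5 with antigen at 16 h gave 5.97% (13.5%) and 15.7% (15.5%), and Cy5 over time in resting cells 17.2% (40.5%). With 1 probe per gene, the brightest, the ratio difference at 2 h gave 0% (all genes 5.58%). Cy3 and Cy5 over time in activated cells gave 19.5% (60.1%) and 22.0% (60.5%). With the mean of a gene's probes the ratio differences with antigen gave 0% at 2 h (all genes 6.03%) and 7.32% at 16 h (8.79%).

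These 2 alternatives were chosen after seeing the data. Without the 3 narrow arrays the ratio differences with antigen gave 2.99% and 20.3%, and over time in resting cells 27.8%. Among full-gain probes alone the 4 ratios gave 13.2% and 39.5% (resting and activated, 2 h) and 21.1% and 34.2% (16 h), and the ratio differences 2.63% (antigen, 2 h) and 7.89% (time, activated). In the fit of all probes, other full-gain probes were called in 11.1% and 31.7% at 2 h and 17.1% and 26.1% at 16 h. Their ratio differences gave 5.32% (antigen, 2 h) and 14.9% (time, activated). Member shares in Cy3 were 23.7% with antigen at 2 h and 47.4% and 71.1% over time in resting and activated cells. Those in Cy5 were 26.3% with antigen at 2 h and 55.3% over time in activated cells. In the fit of all probes, other full-gain probes gave 43.2%, 47.3% and 61.1% in Cy3 and 45.8% and 61.4% in Cy5.

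Leaving out single arrays, the 4 ratios ranged over 44.8% to 53.7% and 54.5% to 57.5% at 2 h and 49.3% to 60.4% and 50.7% to 57.5% at 16 h. The ratio differences ranged over 0.746% to 2.99% (antigen, 2 h), 1.49% to 9.02% (16 h), 0% to 17.2% (time, resting) and 3.73% to 5.97% (activated). In the same order Cy3 ranged over 9.70% to 14.9%, 0.746% to 4.51%, 18.7% to 27.6% and 25.4% to 29.9%, and Cy5 over 11.9% to 14.9%, 11.2% to 25.6%, 17.2% to 33.6% and 28.4% to 34.3%. These ranges are for members alone and do not show whether the members exceed the share of all probes.

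Causes were not tested. Every array had 1 dye orientation, many members were read at low gain, and 4 arrays a group limit small differences.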
